A study of Homo sapiens with 60 samples.

Results

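A set of 41 genes of the synaptic vesicle and release machinery was followed in differentiating SH-SY5Y cells, out of 37334 genes in the expression table. The genes were taken from a list of names, chosen with earlier results of these data known. Shares of all genes beside counts of members are therefore given for scale and are no test of the set. Of the 41, 39 reached at least 1 CPM (assigned reads scaled to a library total of 1e+06) in at least 3 of the 60 libraries and were tested. CADPS2 and AMPH stayed below that level, with highest values of 0.28 CPM and 0.573 CPM, and SV2B entered through 3 libraries of day 18 and had no read in 19 libraries. The remaining 38 members were at or above 1 CPM in all 60 libraries.

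SH-SY5Y is a human neuroblastoma line of sympathetic origin that takes on neuron-like features under a differentiation protocol. Wild-type cells at passage 39, grown in 15 cm dishes with 1 dish per replicate, received lead (Pb) at 0, 0.16, 1.26 or 10 µM from day 5 of differentiation, renewed with the medium. RNA was taken from 3 dishes per dose at days 6, 9, 12, 15 and 18, so that all 20 groups share the line, the passage and the protocol and differ in day and dose. The replicates are dishes of 1 line at 1 passage, so that a p-value here reflects dish-to-dish spread.

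Neurons release transmitter when vesicles loaded with it fuse with the presynaptic membrane. RAB3 proteins and their effectors bring vesicles to the active zone, a protein scaffold at the release site. There, priming factors set up a SNARE complex of VAMP on the vesicle with syntaxin and SNAP25 on the target membrane, complexins hold it in check, and synaptotagmins trigger fusion when calcium enters. The vesicle membrane is then retrieved by clathrin and dynamin. Catecholamine cells such as the SH-SY5Y line use much of the same machinery for large dense-core granules.

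Depth ran from 16.6 to 50.5 M assigned reads per library (M stands for 1e+06), and 3 reads in a library correspond to 0.0594 to 0.181 CPM. The library names of day 18 carry another prefix than those of the other days, so that day 18 cannot be told apart from what the prefix marks, whereas Pb and 0 µM were compared within a day. Long transcripts were low in 2 libraries, replicate 3 of day 6 with 10 µM Pb and replicate 1 of day 18 without Pb, at log2 changes of -0.463 and -0.479 per log10 of transcript length, and the next lowest value was -0.163. All 8 neuronal markers passed the filter, and none of the 6 blood and endothelial markers did. The summed level of the 6 epithelial markers was 66.9 to 102 CPM at day 18 without Pb, against 1.57 to 3.05 CPM at day 6 without Pb. Of these, KRT5, KRT14 and KRT6A reached 44.0, 25.2 and 29.9 CPM at most. EPCAM, CDH1 and KRT15 did not rise above 3.99, 0.723 and 0.880 CPM in any library.

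Promoter windows are shown for RPH3A, RAB3A and RAB3B, which recur in the results, and for UNC13A and SYN1. The last 2 hold matches to RE1, the element bound by the neuronal gene repressor REST. No window was available for 7 members, SYT7, SNAP25, CPLX1, SYNGR3, CADPS2, RIMS2 and DOC2B. The promoters of SYT7 and DOC2B, both among the main results with Pb, were therefore not examined. The windows shown come from RefSeq (GRCh38.p14), run from 250 bases before to 30 after the start, and stand 5′ to 3′ on the gene's strand. Capitals mark matches, on either strand, to the core of the metal response element (TGCACNC or TGCGCNC), the antioxidant response element (TGACNNNGC), the cAMP response element (TGACGTCA) and RE1 (the whole site, or its left part TTCAGCACC or its right part alone). RPH3A is at chr12:112791498-112791777 on the plus strand, at a start inside the gene's annotated span. RAB3A is at chr19:18204013-18204292, RAB3B at chr1:51990671-51990950, UNC13A at chr19:17688325-17688604 and SYN1 at chrX:47619828-47620107, all on the minus strand.
RPH3A: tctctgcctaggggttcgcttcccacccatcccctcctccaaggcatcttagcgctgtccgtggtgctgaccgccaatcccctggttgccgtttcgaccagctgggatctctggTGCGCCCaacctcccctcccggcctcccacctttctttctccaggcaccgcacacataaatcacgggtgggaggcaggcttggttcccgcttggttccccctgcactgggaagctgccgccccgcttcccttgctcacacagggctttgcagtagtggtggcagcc
RAB3A: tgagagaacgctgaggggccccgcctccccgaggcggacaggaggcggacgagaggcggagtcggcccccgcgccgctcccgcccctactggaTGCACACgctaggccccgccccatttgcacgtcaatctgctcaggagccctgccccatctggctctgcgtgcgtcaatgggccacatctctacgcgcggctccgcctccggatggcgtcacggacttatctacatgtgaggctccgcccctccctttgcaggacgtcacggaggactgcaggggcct
RAB3B: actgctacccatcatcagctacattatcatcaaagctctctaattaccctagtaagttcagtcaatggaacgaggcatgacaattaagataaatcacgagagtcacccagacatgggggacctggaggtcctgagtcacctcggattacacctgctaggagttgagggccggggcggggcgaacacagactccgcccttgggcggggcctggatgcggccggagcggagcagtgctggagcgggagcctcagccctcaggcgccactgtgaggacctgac
UNC13A: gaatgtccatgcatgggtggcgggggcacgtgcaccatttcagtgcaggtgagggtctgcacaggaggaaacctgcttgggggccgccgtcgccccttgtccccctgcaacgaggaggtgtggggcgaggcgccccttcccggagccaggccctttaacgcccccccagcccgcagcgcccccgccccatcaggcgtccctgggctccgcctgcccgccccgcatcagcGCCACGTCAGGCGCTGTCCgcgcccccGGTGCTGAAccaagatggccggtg
SYN1: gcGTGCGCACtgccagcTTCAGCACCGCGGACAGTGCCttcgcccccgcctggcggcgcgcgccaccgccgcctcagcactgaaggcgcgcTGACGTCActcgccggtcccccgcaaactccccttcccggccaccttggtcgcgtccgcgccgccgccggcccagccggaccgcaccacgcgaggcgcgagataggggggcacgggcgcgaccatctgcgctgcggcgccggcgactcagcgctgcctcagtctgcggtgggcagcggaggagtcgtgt

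SYN1 held a whole RE1 site, found in 3 of 35116 windows of 300 bases, and the cAMP response element, found in 1.85% of windows. UNC13A held the left and the right part of RE1 at a wider spacing than the whole site, next to an antioxidant response element. RPH3A and RAB3A each held a metal response core, and the SYN1 window held overlapping copies on both strands. RAB3B held no match. Of the 34 members with a window, 61.8% held a metal response core in at least 1 of their windows of 300 bases. Among all windows, each counted singly, the share was 29.6%. A gene with several windows has more places for a match, so the 2 shares are not measured alike. The median GC content was 67.7% over 1 window per member and 58.7% over all windows, and the part of GC content in the shares was not tested. The antioxidant element was in 8.82% of members, counted in the same way, and in 13.3% of all windows. A match is a run of letters and does not show binding.

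The time course without Pb asks how the machinery changes as the cells differentiate. Few members had changed by day 9. All 4 RAB3 genes, SYP, SYT1 and PCLO were higher at days 12, 15 and 18, while the calcium sensor gene SYT7 was lower at each day than at day 6. In bulk RNA, fewer cells that express a gene and less RNA per cell cannot be told apart. In the same dishes the sum of the 5 proliferation markers was 302 to 336 CPM at day 18 and 692 to 726 CPM at day 6, and that of the sympathoadrenal markers was 12395 to 12885 CPM at day 15 and 2837 to 2995 CPM at day 6, and their part was not tested. At day 9, 1 of 39 tested members was higher and 3 were lower than at day 6 (limma on log2(CPM + 1), Benjamini-Hochberg adjusted p under 0.05), where 2.63% and 2.51% of the 15263 genes tested were higher and lower (5.14% in all). At day 12, 16 members were higher and 6 lower, against 21.6% and 34.6% of all genes (56.2% in all). At day 15, 20 were higher and 4 lower, against 26.2% and 32.2% of all genes (58.3% in all), and at day 18, 18 were higher and 11 lower, against 32.1% and 34.7% (66.8% in all). Between successive days, 22 members passed from day 9 to 12 (54.4% of all genes), 17 from day 12 to 15 (37% of all genes) and 19 from day 15 to 18 (33.3% of all genes). The median log2 change of the members was 0.22 at day 12, 0.36 at day 15 and 0.14 at day 18, beside -0.11, -0.05 and -0.03 for all genes. Rescaling each library to a common median ratio moved the median of all genes at day 12 to -0.01, with 19 members higher and 5 lower there. The shares of all genes above belong to the fit without rescaling, and none is set beside the rescaled counts.

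**Figure D1:**
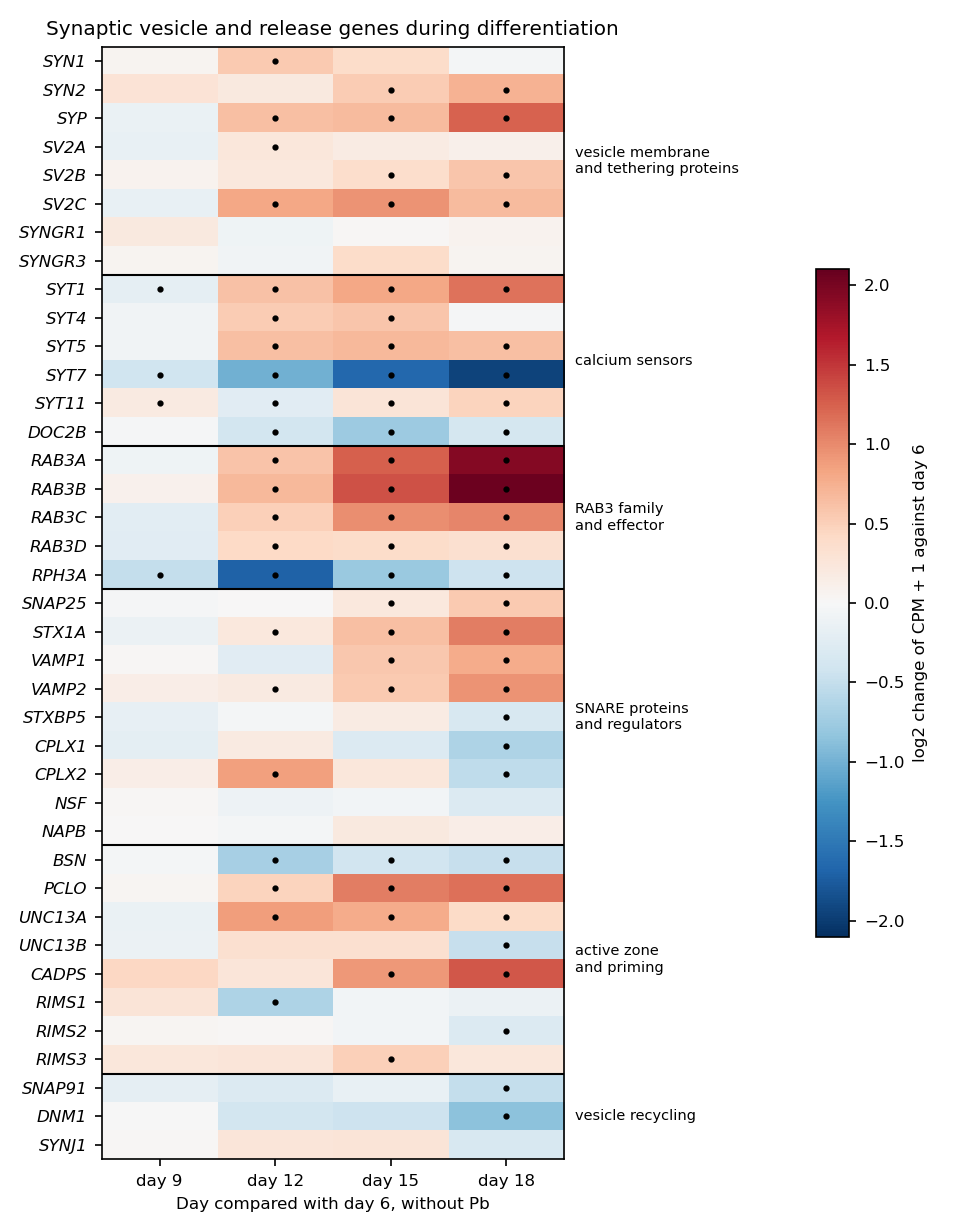
Colour gives the log2 change of CPM + 1 at days 9, 12, 15 and 18 against day 6 without Pb for the 39 tested members, ordered by role, and a black dot marks an adjusted p under 0.05 (limma, n = 3 dishes per day). RAB3A and RAB3B show the strongest red at day 18 (1.93 and 2.05), SYT7 the strongest blue (-1.94), and RPH3A is lowest at day 12 (-1.71). The role group of calcium sensors includes SYT11, which does not bind calcium.

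RAB3 proteins are small GTPases of the vesicle surface, and all 4 of their genes were higher at days 12, 15 and 18. RAB3B had 175, 183 and 178 CPM at day 18 and 43.5, 40.4 and 43.2 CPM at day 6. At days 12 and 15 it had 67.7, 69.6 and 67.7 CPM and 111, 106 and 111 CPM, and its steps from day 9 to 12, 12 to 15 and 15 to 18 were log2 0.59 ± 0.05, 0.67 ± 0.05 and 0.71 ± 0.05 (SE). RAB3A had 169, 180 and 149 CPM at day 18 and 43.3, 42.0 and 42.7 CPM at day 6. No library of day 18 came near one of day 6 for either gene, at log2 changes of 2.05 ± 0.05 for RAB3B and 1.93 ± 0.08 for RAB3A (adjusted p = 3.35e-35 and 5.04e-26). RAB3C had 80.3, 77.1 and 74.2 CPM at day 15, against 39.0, 36.5 and 41.1 CPM at day 6 (0.97 ± 0.08). It averaged 80.5 ± 5.4 CPM at day 18 and 38.9 ± 2.3 CPM at day 6 (SD, n = 3), and its step from day 15 to day 18 did not pass (0.06 ± 0.08, adjusted p = 0.612). RAB3D was higher by 0.43 at day 12, 0.38 at day 15 and 0.33 at day 18, and 24.9% of its exon bases overlap exons of other genes, so that its counts are uncertain because the strand setting of the counting is not given. The day 18 call of RAB3D was lost without replicate 3 of day 18 (adjusted p = 0.127) and with only the 6 libraries compared in the fit (adjusted p = 0.0999).

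RPH3A encodes rabphilin, a RAB3 effector that binds calcium and SNAP25, and it went below its day 6 level while the RAB3 genes went above theirs. It averaged 15.3, 10.5, 4.01, 8.46 and 11.1 CPM at days 6, 9, 12, 15 and 18. At day 12 it had 3.86, 4.59 and 3.56 CPM, against 15.5, 16.3 and 14.0 CPM at day 6. The log2 change at day 12 was -1.71 ± 0.13 (adjusted p = 3.66e-15), and the return by day 15 was 0.92 ± 0.13 (adjusted p = 2.96e-07). The smaller change already seen at day 9 (-0.50, adjusted p = 0.0165) was lost without replicate 1 or 2 of day 6 or replicate 2 of day 9 (adjusted p up to 0.106).

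**Figure D2:**
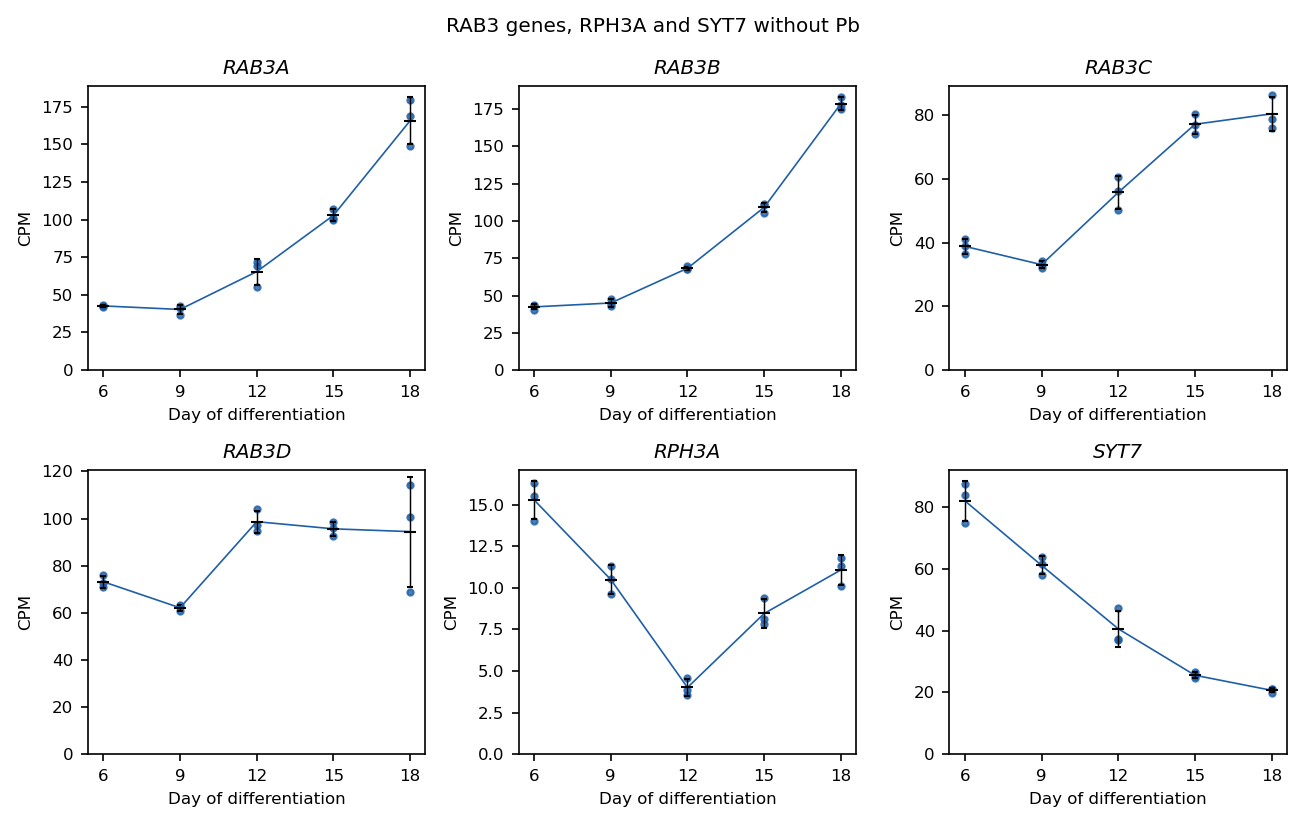
Points are the CPM of single dishes without Pb at each day, black bars the mean ± SD (n = 3), and the line joins the means, with each axis starting at 0. RAB3A and RAB3B climb to 166 and 179 CPM at day 18, RPH3A has its lowest mean at day 12 (4.01 CPM), and SYT7 falls at each day to 20.7 CPM.

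Among the calcium sensors and related synaptotagmins, SYT7 and the fast sensor SYT1 went opposite ways. SYT7, a high-affinity synaptotagmin of slow release and of dense-core granules, had 19.9, 20.9 and 21.1 CPM at day 18 and 87.5, 83.9 and 74.8 CPM at day 6. Its log2 change was -0.42 at day 9, -1.0 at day 12, -1.64 at day 15 and -1.94 ± 0.10 at day 18 (adjusted p = 3.61e-22 at day 18). The call at day 9 was lost without replicate 1 of day 6 (adjusted p = 0.052). SYT1 had 195, 218 and 215 CPM at day 18 and 97.7, 97.4 and 88.9 CPM at day 6, after a small fall at day 9 (log2 change -0.19, adjusted p = 0.0102), which was lost without replicate 1 or 2 of day 6 or replicate 3 of day 9 (adjusted p up to 0.0869) and with only the 6 libraries compared in the fit (adjusted p = 0.114).
SYT5, of dense-core granules, was higher by 0.63 to 0.69 at days 12, 15 and 18. SYT11, a synaptotagmin that does not bind calcium, was higher at day 9 with 647, 617 and 633 CPM (0.19, adjusted p = 0.00186), lower at day 12 with 481, 457 and 467 CPM, against 569, 557 and 535 CPM at day 6, and higher again at day 18 with 731, 783 and 773 CPM. Its day 9 call was lost with only the 6 libraries compared in the fit (adjusted p = 0.0544). DOC2B, a high-affinity sensor of spontaneous release, had its lowest mean at day 15, with 10.3, 12.4 and 10.2 CPM, against 17.6, 19.7 and 20.2 CPM at day 6 (log2 change -0.76, adjusted p = 6.78e-05). SYT4 was higher at days 12 and 15 by 0.53 and 0.58, and in replicate 1 of day 18, low in long transcripts, it stood at 272 CPM beside 491 and 560 CPM in the other dishes of that day.

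Of the 9 SNARE genes and regulators, 3 were higher at day 12 and 4 at day 18, when 3 were lower, where 21.6% of all genes passed upward at day 12, and 32.1% upward and 34.7% downward at day 18. STX1A (syntaxin 1A) had 243, 258 and 216 CPM at day 18 and 118, 110 and 111 CPM at day 6, a log2 change of 1.07 ± 0.06 (adjusted p = 4.04e-20). VAMP2 and VAMP1, the vesicle SNAREs, were higher at day 18 by 0.94 and 0.78, and SNAP25 by 0.55, with 939 ± 49.5 CPM at day 18 and 641 ± 14 CPM at day 6 (SD, n = 3). In VAMP2, 13.2% of the exon bases overlap exons of another gene. The complexin gene CPLX1 had 108, 98.3 and 104 CPM at day 18 and 162, 172 and 155 CPM at day 6 (log2 change -0.65 ± 0.15, adjusted p = 0.000149). CPLX2 had its highest mean at day 12, with 178, 166 and 155 CPM, above 95.4, 96.2 and 81.8 CPM at day 6, and was below day 6 at day 18 with 43.5, 71.7 and 77.2 CPM (log2 change -0.54, and -0.29 without replicate 1 of day 18, adjusted p = 0.0383). Its fall between day 15 and day 18 was -0.77 ± 0.13 (adjusted p = 1.25e-05), and -0.52 without replicate 1 of day 18. STXBP5 (tomosyn), which ties up syntaxin and SNAP25, was lower at day 18 by -0.33 (adjusted p = 0.00571), a call lost without replicate 2 of day 6 (adjusted p = 0.0663) and with only the 6 libraries compared in the fit (adjusted p = 0.056). NSF and NAPB, which take SNARE complexes apart after fusion, passed the test at none of the 4 days, and a near-identical pseudogene copy of NSF makes its counts uncertain.

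On the vesicle membrane, SYP (synaptophysin) had 189, 208 and 154 CPM at day 18 and 83.8, 76.5 and 70.0 CPM at day 6, a log2 change of 1.24 ± 0.07 (adjusted p = 2.08e-21). SV2C, a glycoprotein of secretory vesicles, had 220, 213 and 223 CPM at day 12, against 127, 123 and 122 CPM at day 6, and was higher by 0.94 at day 15. SV2A passed at day 12 only among the 4 days (0.24, adjusted p = 0.0205), a call lost without replicate 3 of day 6 or replicate 1 of day 12 (adjusted p up to 0.117). The synapsin genes, whose products tether vesicles, went at different times. SYN1 was higher at day 12 by 0.55 ± 0.22 (adjusted p = 0.0266). That call was lost without replicate 2 or 3 of either day (adjusted p up to 0.107) and with no filter on low values (adjusted p = 0.0588). SYN2 was higher at days 15 and 18 by 0.53 and 0.73. In SYN1, 9.70% of the exon bases overlap exons of other genes. SYNGR1 and SYNGR3, the synaptogyrins, passed at none of the 4 days. SV2B averaged 0.502 CPM at day 18 and had no read in any dish of day 6 without Pb, and it was tested only because 3 Pb-exposed dishes of day 18 reached 1 CPM, so its calls, counted among the members higher at days 15 and 18, support nothing.

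Active zone genes split as well. PCLO (piccolo) had 100, 100 and 112 CPM at day 18 and 46.0, 42.0 and 50.6 CPM at day 6 (1.16 ± 0.08, adjusted p = 6.72e-17), with 104, 96.1 and 94.7 CPM already at day 15. BSN (bassoon), the related scaffold gene, was lower, with 14.9, 15.8 and 15.4 CPM at day 12 and 28.4, 24.0 and 24.7 CPM at day 6 (log2 change -0.70, adjusted p = 2.83e-08). The priming gene UNC13A had 81.2, 88.5 and 82.1 CPM at day 12, against 47.3, 46.0 and 42.6 CPM at day 6 (0.88 ± 0.12, adjusted p = 2.03e-08), and was higher by 0.39 at day 18. UNC13B passed only at day 18, where it was lower by -0.48, a call lost without replicate 1 of day 6 or replicate 1 or 2 of day 18 (adjusted p up to 0.12) and with only the 6 libraries compared in the fit (adjusted p = 0.0671). CADPS, a priming factor of dense-core granules, was low throughout but had 8.36, 11.1 and 8.08 CPM at day 18 and 3.46, 3.45 and 2.44 CPM at day 6 (1.3 ± 0.15, adjusted p = 4.45e-10). RIMS1, which links vesicles to calcium channels, dipped at day 12 to 5.29, 5.61 and 4.44 CPM, against 8.83, 8.50 and 8.21 CPM at day 6. RIMS2 was lower at day 18 by -0.29, a call lost without replicate 1 of that day (adjusted p = 0.0624) and with only the 6 libraries compared in the fit (adjusted p = 0.0617), and RIMS3 was higher at day 15 by 0.50.

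None of the 3 tested vesicle retrieval genes was higher than at day 6 at any of the 4 days by limma. Of all genes, 2.63%, 21.6%, 26.2% and 32.1% were higher at days 9, 12, 15 and 18, so 3 genes are too few to set against these shares. DNM1, the neuronal dynamin, had 64.4, 67.4 and 65.4 CPM at day 18 and 120, 121 and 122 CPM at day 6 (log2 change -0.87, adjusted p = 0.000276). SNAP91, a clathrin adaptor, was lower by -0.50 at day 18 (adjusted p = 0.00213), and by -0.29 without replicate 1 of that day (adjusted p = 0.0824). SYNJ1, which strips clathrin from vesicles, passed at none of the 4 days.

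Levels were compared between genes per 1 kb of the longest protein-coding transcript. SNAP25 stood first at day 18 with 457 ± 24 CPM per kb and at day 6 with 312 ± 7 CPM per kb (SD, n = 3). At day 18, SYT11 followed with 146, STX1A with 114 ± 10, RAB3A with 109 ± 10 and SYT4 with 107 ± 37 CPM per kb, and the last 3 did not differ beyond their spread. At day 6, SYT11 and SYT4 (106 and 104) were followed by CPLX1 with 74.7 and STX1A with 54.0 CPM per kb. BSN, RIMS1 and UNC13B were at 1.10 to 1.51 CPM per kb at day 18.

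Related genes outside the set were counted from lists, also chosen with earlier results of these data known. The share of all genes that passed upward was 26.2% at day 15 and 32.1% at day 18, and downward 32.2% at day 15 and 34.7% at day 18. Of 22 tested genes for vesicular transporters and the vesicle proton pump, 20 were higher and none lower at day 18 and at day 15. SLC18A2, the vesicular monoamine transporter of neurons, averaged 25.0 ± 6.2 CPM at day 18 and 0.804 ± 0.410 CPM at day 6 (SD, n = 3; log2 change of CPM + 1 of 3.84, adjusted p = 6.49e-26). Of 37 further SNARE, priming and active zone genes, 20 were higher and 8 lower at day 18, with the fast calcium sensor gene SYT2 at 13.2 ± 1.4 CPM, against 0.841 ± 0.073 CPM at day 6. Of 27 clathrin and recycling genes, 10 were higher and 8 lower at day 18, with DNM3 higher by 2.26 and the kinase gene AAK1 lower by -0.64. Of 11 calcium channel subunit genes, 7 were higher and 2 lower, with CACNA1E higher by 1.90 and CACNA1B, the N-type channel, by 0.81.

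Pb was compared with 0 µM within each day, and the 5 differences were averaged to give a mean over days. The main results at 10 µM were lower SYT7 at days 9 and 12, lower RPH3A at days 15 and 18, lower DOC2B at day 18, and higher RAB3B and PCLO at day 12. As the mean over days, no member passed at 0.16 µM in limma, against 0.059% of all genes higher and 0.0655% lower, with 6 members at an unadjusted p under 0.05. At 1.26 µM, 3 were higher and none lower, against 1.67% and 2.17% of all genes. At 10 µM, 8 were higher and 3 lower, against 6.93% and 8.13% of all genes. The 3 doses share the 0 µM dishes of each day. Most differences were small: those of the 8 members higher at 10 µM lay between 0.06 and 0.15 on the log2 scale, beside a median of 0.06 over the 39 members and 0.00 over all genes.

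SYT7, which lies at chr11:61513714-61588387 (RefSeq, GRCh38), was lower with Pb at days 9 and 12. At day 9 it had 58.1, 61.5 and 63.9 CPM without Pb, 55.8, 47.2 and 60.7 CPM with 0.16 µM, 44.3, 38.1 and 29.1 CPM with 1.26 µM, and 31.6, 31.3 and 30.8 CPM with 10 µM. The dishes at 1.26 and 10 µM were all below those without Pb, and those at 0.16 µM overlapped them. Its log2 difference from 0 µM at day 9 was -0.17 ± 0.10 at 0.16 µM (adjusted p = 1), -0.72 ± 0.10 at 1.26 µM (adjusted p = 9.17e-06, where 0.4% of all genes passed, and adjusted p = 0.223 with only the 6 libraries compared in the fit) and -0.95 ± 0.10 at 10 µM (adjusted p = 1.14e-09). At day 12 it had 27.4, 26.3 and 26.6 CPM with 10 µM and 37.4, 47.3 and 37.1 CPM without Pb (-0.57 ± 0.10, adjusted p = 0.000113). No difference passed at day 6, 1 day after Pb was first added, or at days 15 and 18, when the means were 28.5 and 21.1 CPM with 10 µM and 25.5 and 20.7 CPM without Pb. The 10 µM dishes of day 9 lay below all dishes of day 12 without Pb. Over all members, 2 were higher and 1 lower with 10 µM at day 9, against 0.446% and 0.963% of all genes.
The sum of the 9 mesenchymal or fibroblast markers, of which 8 were tested, was lower in the same dishes with Pb, at 66.6 to 81.6 CPM with 10 µM and 153 to 158 CPM without Pb at day 9, and their part in the SYT7 difference was not tested.

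**Figure D3:**
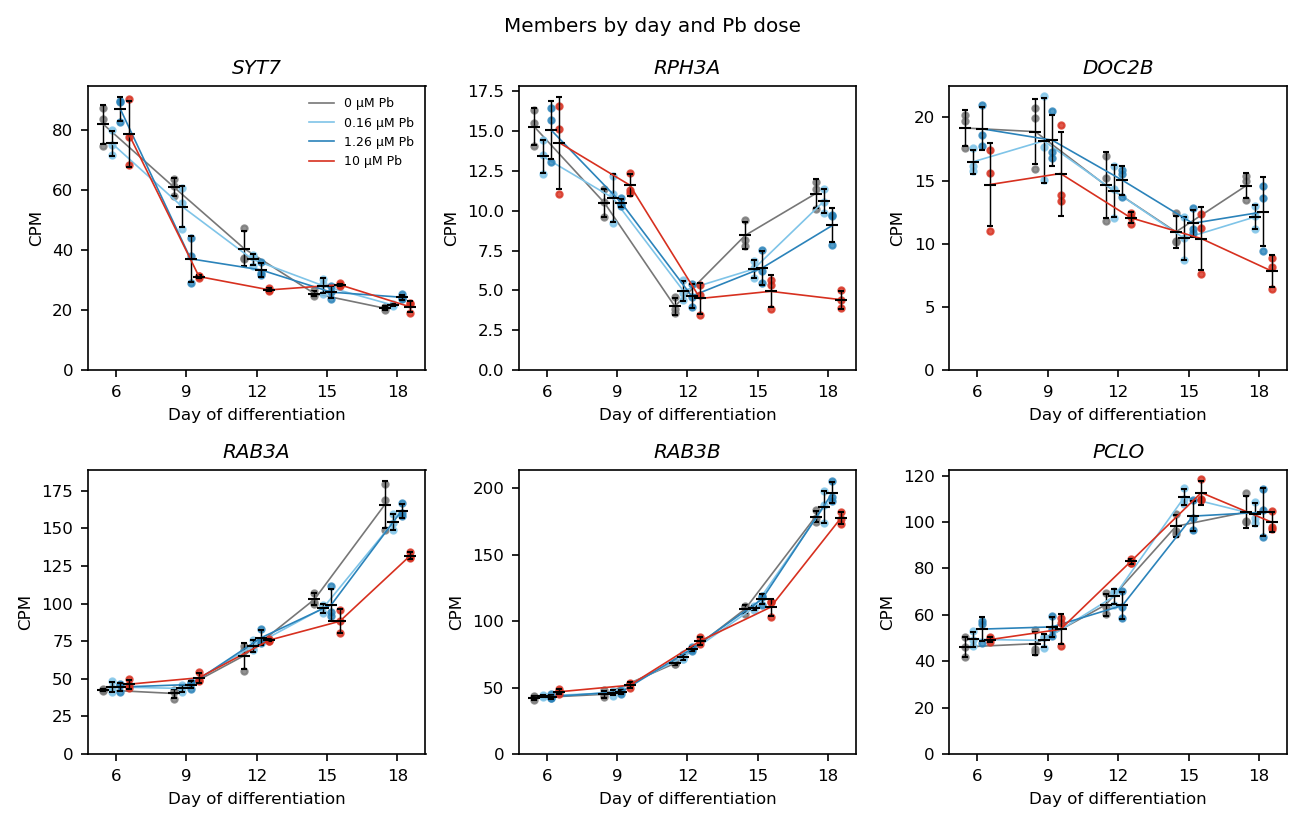
Points are the CPM of single dishes by day and Pb dose, coloured by dose, black bars the mean ± SD (n = 3), and lines join the means of each dose. SYT7 is low at day 9 with 1.26 and 10 µM (37.2 and 31.2 CPM, 61.1 CPM without Pb), and RPH3A stays near 4.5 CPM after day 12 with 10 µM and is at 11.1 CPM at day 18 without Pb.

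RPH3A was lower with Pb at days 15 and 18. With 10 µM it had 4.71, 5.33 and 3.45 CPM at day 12, overlapping 3.86, 4.59 and 3.56 CPM without Pb. At day 15 it had 3.81, 5.67 and 5.36 CPM with 10 µM and 9.42, 7.81 and 8.15 CPM without Pb (log2 difference -0.68 ± 0.13, adjusted p = 0.000574). That call was lost with only the 6 libraries compared in the fit (adjusted p = 0.0526). At day 18 it had 5.01, 3.88 and 4.37 CPM with 10 µM and 10.1, 11.3 and 11.8 CPM without Pb (-1.16 ± 0.13, adjusted p = 3.04e-09). The means at days 12, 15 and 18 were 4.5, 4.94 and 4.42 CPM with 10 µM and 4.01, 8.46 and 11.1 CPM without Pb, and the difference itself differed between days (moderated F test of the 10 µM difference over days, adjusted p = 7.14e-07). The means at day 15 were 6.34 CPM with 0.16 µM and 6.41 CPM with 1.26 µM, and neither dose passed there (adjusted p = 0.908 and 0.251) or at day 18, when they were 10.6 and 9.09 CPM (adjusted p = 0.865 and 0.2). RPH3A was the only member of 39 to pass at 10 µM at day 15, against 2.5% of all genes higher and 3.18% lower (5.68% in all). Its mean over days (-0.34, adjusted p = 3.31e-05) rests on day 18: without that day it was -0.13 (adjusted p = 0.26). The sum of the 5 proliferation markers was lower with Pb in the same dishes, at 278 to 292 CPM with 10 µM and 383 to 451 CPM without Pb at day 15, and their part was not tested.

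DOC2B, at chr17:142789-181650, had 8.89, 8.18 and 6.46 CPM with 10 µM at day 18 and 13.5, 15.0 and 15.4 CPM without Pb, with no overlap (-0.83 ± 0.16, adjusted p = 7.95e-05). Its mean over days was -0.36 ± 0.07 (adjusted p = 0.000144), lower at 5 of 5 days, and -0.25 without day 18 (adjusted p = 0.0374). At days 6, 9, 12 and 15 the difference did not pass.

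RAB3B had 84.8, 82.6 and 87.9 CPM with 10 µM at day 12 and 67.7, 69.6 and 67.7 CPM without Pb (0.31 ± 0.05, adjusted p = 2.40e-05), and its mean over days was 0.13 ± 0.02 (adjusted p = 9.39e-06). At day 9 it was higher by 0.20 (adjusted p = 0.0173), a call lost without replicate 1 or 3 at 10 µM or replicate 2 or 3 at 0 µM of that day (adjusted p up to 0.196) and with only the 6 libraries compared in the fit (adjusted p = 0.371), and at days 15 and 18 it did not pass (0.02 and -0.01). RAB3A was higher with 10 µM at day 9, with 54.6, 48.4 and 49.3 CPM, against 41.5, 36.9 and 42.5 CPM without Pb (0.33 ± 0.08, adjusted p = 0.0134), a call lost without replicate 1 at 10 µM or replicate 2 at 0 µM of that day (adjusted p up to 0.185) and with only the 6 libraries compared in the fit (adjusted p = 0.166). With rescaling to a common median ratio, 1 member was higher with 10 µM at day 9 in place of these 2. At day 18 RAB3A was lower with 10 µM, with 135, 130 and 131 CPM, against 169, 180 and 149 CPM without Pb (-0.32 ± 0.08, adjusted p = 0.00133). That call was lost when libraries were corrected for GC content and length (-0.16, adjusted p = 0.0845). The 10 µM differences of RAB3A differed between days (moderated F test over 4 contrasts, F = 13.1, adjusted p = 1.58e-05), also without day 18 (adjusted p = 0.00939).

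At day 12, 5 members were higher and 1 lower with 10 µM, against 3.03% and 2.34% of all genes. In the same dishes the summed mesenchymal or fibroblast markers were 99.4 to 105 CPM with 10 µM and 207 to 211 CPM without Pb, the proliferation markers 313 to 319 CPM with 10 µM and 420 to 463 CPM without Pb, and the sympathoadrenal markers 8188 to 8765 CPM with 10 µM and 9430 to 9969 CPM without Pb, and their part was not tested. PCLO had 84.2, 82.5 and 82.4 CPM with 10 µM and 63.2, 60.3 and 69.4 CPM without Pb (0.37 ± 0.08, adjusted p = 0.0039). SYP had 138, 149 and 142 CPM with 10 µM and 123, 117 and 117 CPM without Pb (0.26 ± 0.07, adjusted p = 0.0106), a call lost without replicate 2 at 10 µM or replicate 3 at 0 µM of that day (adjusted p up to 0.0765). SYT11 had 524, 515 and 557 CPM with 10 µM and 481, 457 and 467 CPM without Pb (0.18, adjusted p = 0.00412), a call lost without replicate 3 at 10 µM (adjusted p = 0.0607) and with only the 6 libraries compared in the fit (adjusted p = 0.065), and SNAP25 was higher by 0.15 (adjusted p = 0.0489), a call lost without any 1 of the 6 libraries (adjusted p up to 0.143). At day 6 no member passed at 10 µM in limma, where 0.295% of all genes were higher and 0.360% lower, and 7 members had an unadjusted p under 0.05. The 2 smallest p at day 6 belonged to RIMS3, with 56.3, 54.6 and 27.8 CPM at 10 µM and 61.5, 61.4 and 58.5 CPM without Pb (-0.45, adjusted p = 0.125), and RAB3B (0.14, adjusted p = 0.153). The low RIMS3 value is in the library low in long transcripts, and without it the difference was -0.12 (adjusted p = 0.852).

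At day 18, 8 members were higher and none lower with 0.16 µM, against 5.19% and 1.15% of all genes. With 1.26 µM, 11 were higher and none lower, against 9.1% and 3.28% of all genes, and with 10 µM, 14 were higher and 6 lower, against 12.1% and 16.9% (28.9% in all). SV2B is among the 14, and its call supports nothing, since 3 Pb-exposed dishes of day 18 brought it through the filter. These counts share the 0 µM dishes of day 18, of which replicate 1 is low in long transcripts. Without it, 9 members were higher and 4 lower with 10 µM, and all 13 were among the 20 called with it, where 18.1% of all genes passed, and SV2B is again counted. With 1.26 µM only UNC13B kept its call, where 0.498% of all genes passed, and with 0.16 µM none did, where 0.0262% of all genes passed. With only the 6 libraries compared in the fit, 10 members passed with 10 µM, and the 11 calls at 1.26 µM and 8 at 0.16 µM were all lost. No share of all genes is set beside the 10. UNC13B had 17.2, 17.8 and 31.2 CPM without Pb, 40.9, 37.4 and 34.6 CPM with 0.16 µM, 44.6, 38.4 and 40.6 CPM with 1.26 µM and 41.8, 34.5 and 37.0 CPM with 10 µM, and no Pb dish overlapped those without Pb. Its transcript is long, at 14550 bases. Replicate 2 of 0 µM also had a low value per log10 of transcript length, -0.159, against 0.0134 in replicate 3. Leaving out replicate 1 thus does not remove all dishes low in long transcripts. Under the correction for GC content and length the difference at 1.26 µM was 0.78 (adjusted p = 0.000535).

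**Figure D4:**
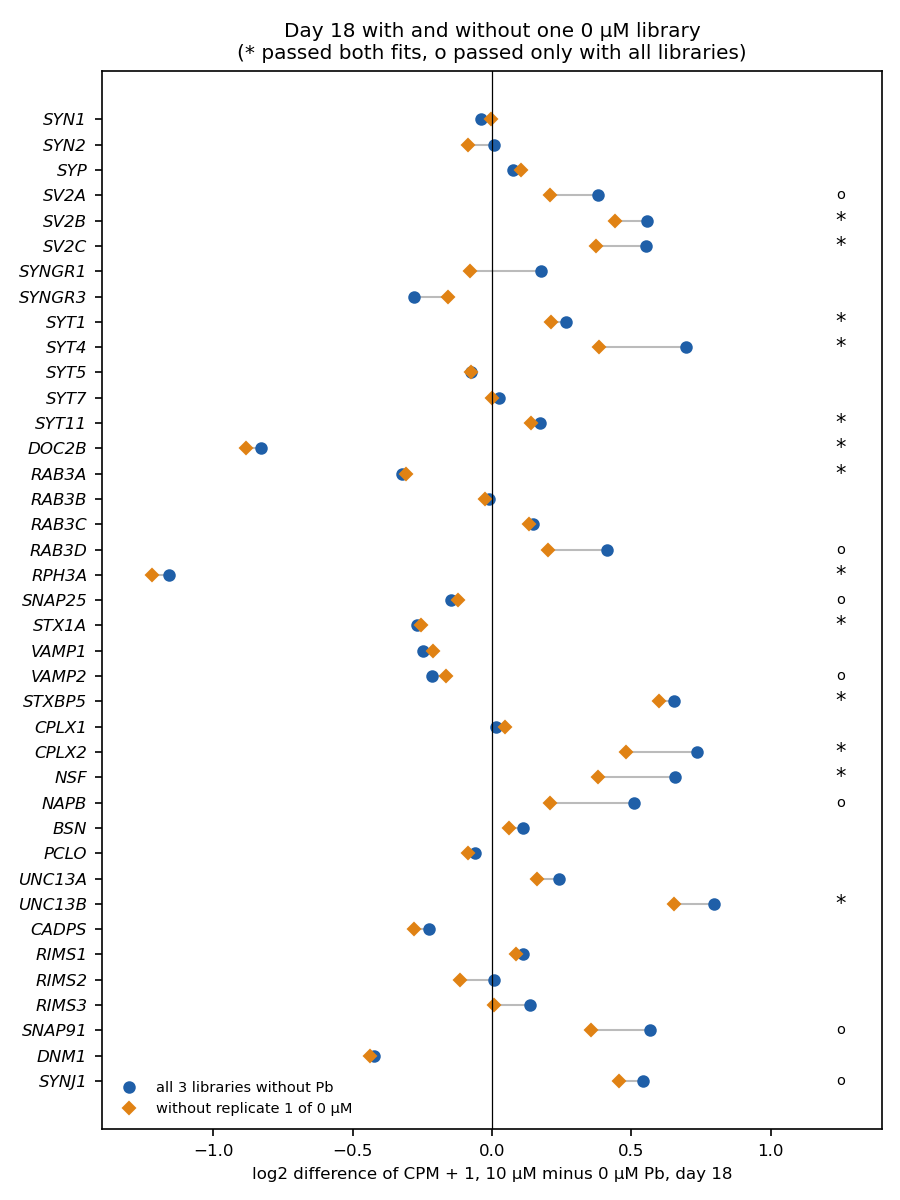
For each tested member, the blue point gives the log2 difference of CPM + 1 with 10 µM minus 0 µM at day 18 from all libraries and the orange point the same without replicate 1 of 0 µM. An asterisk marks the 13 members that passed both ways and a small circle the 7 that passed only with all libraries. RPH3A (-1.16 and -1.22) and DOC2B (-0.83 and -0.88) move little, whereas SYT4 (0.70 and 0.38) and NAPB (0.51 and 0.21) lie nearer 0 without it.

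Of the members higher with 10 µM at day 18 in both fits, CPLX2 had 108, 107 and 97.7 CPM with 10 µM and 43.5, 71.7 and 77.2 CPM without Pb (0.73 ± 0.13, adjusted p = 2.48e-05, and 0.48 without replicate 1). At 0.16 and 1.26 µM it averaged 83.7 and 92.4 CPM. STXBP5 had 27.1, 25.4 and 27.5 CPM with 10 µM and 15.3, 19.1 and 15.5 CPM without Pb (0.65 ± 0.11, adjusted p = 5.46e-06, and 0.60 without replicate 1). Its mean over days was 0.14 with all days and 0.02 without day 18 (adjusted p = 0.903). SYT1 had 254, 251 and 250 CPM with 10 µM and 195, 218 and 215 CPM without Pb (0.27 ± 0.05, adjusted p = 4.11e-05), and its mean over days was 0.12 ± 0.02, above 0 at 5 of 5 days. UNC13B (0.80), NSF (0.66, and 0.38 without replicate 1), SYT4 (0.70 and 0.38), SV2C (0.55 and 0.37) and SYT11 (0.17) also passed both ways. SV2B had 0.768, 1.19 and 1.71 CPM with 10 µM and 0.273, 0.511 and 0.723 CPM without Pb, given as values only. With only the 6 libraries compared in the fit the calls of NSF and SYT4 were lost (adjusted p = 0.0619 and 0.0667). STX1A was lower with 201, 181 and 212 CPM at 10 µM and 243, 258 and 216 CPM without Pb (-0.27 ± 0.06, adjusted p = 0.0008), and this call, like that of SYT11, was lost under the correction for GC content and length (-0.13 for STX1A and 0.12 for SYT11) and with only the 6 libraries compared in the fit (adjusted p up to 0.0865 for STX1A and 0.133 for SYT11 over both settings). The 7 members that passed only with replicate 1 were SV2A, RAB3D, NAPB, SNAP91 and SYNJ1, which were higher, and SNAP25 and VAMP2, which were lower. Summed proliferation markers were 197 to 212 CPM with 10 µM and 302 to 336 CPM without Pb at day 18, and epithelial markers 64.1 to 78.1 CPM with 10 µM and 66.9 to 102 CPM without Pb, and their part was not tested.

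As the mean over days, SV2A was higher with 10 µM by 0.13 (adjusted p = 0.022). It had 223, 206 and 227 CPM with 10 µM at day 18 and 132, 188 and 189 CPM without Pb. The call was lost with only the groups compared in the fit and on leaving out 10 µM dish 1 or 2 of day 6, 0 µM dish 1 of day 18 or the whole of day 18 (adjusted p up to 0.353). SNAP25 was higher by 0.06 (adjusted p = 0.0352), a mean over differences of opposite sign, 0.15 at day 12 and -0.15 at day 18. It was higher at 4 of 5 days, and without day 18 its mean was 0.12 (adjusted p = 0.000473). With all days the call was lost on leaving out any 1 of 11 of the 30 libraries (adjusted p up to 0.0729). STXBP5 was lost on leaving out any 1 of 10 (adjusted p up to 0.0814). SYP, SYT11 and PCLO, at 0.10, 0.09 and 0.15, kept their calls on leaving out each library, and SYP missed the threshold with only the groups compared in the fit (adjusted p = 0.0539). Without replicate 3 of day 6 at 10 µM, 18 members passed as the mean over days in place of 11. No share of all genes is set beside the 18 or beside the rescaled counts that follow. At 1.26 µM, the members higher were RAB3B (0.11, lost under the correction for GC content and length), SV2A (0.13, lost on leaving out any 1 of 21 libraries) and CPLX2 (0.20, lost on leaving out any 1 of 12), and rescaling gave 2 higher and 1 lower, with SYT7 at -0.14 (adjusted p = 0.0488).

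The size of the 10 µM difference depended on the day for 21 members, where 21.7% of all genes passed the same F test, led by SYT7 (F = 22.1, adjusted p = 4.64e-08), RPH3A (F = 17.6), RAB3A (F = 13.1) and CPLX2 (F = 10.1). SV2B is among the 21, and its call supports nothing. Without day 18, 7 members passed: SYT7, RAB3A, SYP, RPH3A, CPLX2, RAB3B and BSN. The 21.7% belongs to the test over all days, and no share of all genes is set beside the 7.

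Outside the set, 9 of 22 transporter and proton pump genes were higher and none lower with 10 µM as the mean over days, where 6.93% of all genes were higher and 8.13% lower, led by ATP6V0B (0.15 ± 0.03) and SLC17A5 (0.24 ± 0.04). Of 37 further SNARE, priming and active zone genes 2 were higher and 1 lower, the last being RAB27B at -0.36, which encodes a GTPase of secretory granules. Of 11 calcium channel genes 1 was higher, CACNB4 (0.27), and 2 were lower, CACNA2D2 (-0.20) and CACNA1D (-0.25), and of 27 recycling genes 1 was higher, NECAP1 (0.12).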

How the data were processed

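The authors deposited CPM values (counts of assigned reads scaled to a library total of 1e+06) for 37334 genes in 60 RNA-seq libraries made by tagmentation with well barcodes, per the labels. FastQC, MultiQC, STAR, featureCounts and GRCh38 are named in the submitters' processing notes; versions, the annotation and the strand setting are not given in the sources used here. All deposited CPM values were whole multiples of the value of 1 read within 0.01 read, so whole reads were recovered.

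Values were analysed as log2(CPM + 1), so that changes of low genes are understated. Group means for the 20 groups were estimated from all 60 libraries over 15263 genes with limma 3.58.1 in R 4.3.3 (intensity trend, 40 residual degrees of freedom, two-sided), with Benjamini-Hochberg adjustment over all genes and a threshold of 0.05. In all, 26 comparisons were made. edgeR 4.0.16 was run on the recovered reads as an alternative. The fit was tested on simulated data. The values after ± are the SE of the fit or the SD over dishes, and both reflect dish-to-dish spread. Floors cover counting error only.

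The members, the role groups, the related lists and the markers were chosen with earlier results of these data known. Library values are given for the 4 largest rises and falls per day, for members past the threshold over days at 10 µM (up to 10) and up to 4 per day by smallest p. Some other members were chosen after their values were seen. Transcript lengths are those of GENCODE 29.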

Additional observations from a re-analysis of the deposited data

Results flagged for a closer look

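For 21 members the 10 µM difference itself differed between days (limma moderated F test over 4 contrasts, adjusted over 15263 genes, where 21.7% of all genes passed). The adjusted p was 4.64e-08 for SYT7, 7.14e-07 for RPH3A, 1.58e-05 for RAB3A, 0.000185 for CPLX2, 0.000344 for STXBP5, 0.00195 for RAB3B and 0.00232 for SV2C. It was 0.00381 for SNAP25, 0.00664 for NSF, 0.00736 for STX1A, 0.00752 for RAB3D, 0.00762 for SYT4, 0.0126 for VAMP2 and 0.0136 for UNC13B. It was 0.0162 for BSN, 0.0166 for SYT11, 0.0195 for SV2A, 0.0215 for SNAP91, 0.0259 for SYP, 0.0403 for NAPB and 0.0417 for SV2B. The SV2B value supports nothing, since Pb-exposed dishes of day 18 brought that gene through the filter, and it was 0.216 in edgeR. Without the 2 libraries low in long transcripts the adjusted p was 0.351 for SV2A, 0.267 for SNAP91, 0.221 for NAPB, 0.218 for SV2B, 0.0614 for UNC13B and 0.0502 for SYT11, and in edgeR it was 0.0681 for VAMP2 and 0.0728 for SYP. With only the groups compared in the fit, 9 members passed, and no share of all genes is set beside the 9.

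Without day 18 the adjusted p was 9.92e-06 for SYT7, 0.00939 for RAB3A, 0.0106 for SYP, 0.0174 for RPH3A, 0.0264 for CPLX2, 0.0327 for RAB3B and 0.038 for BSN, and the other members missed the threshold. SYT7 was lower with 10 µM at days 9 and 12, and RPH3A at days 15 and 18. RAB3A was higher with 10 µM at day 9 and lower at day 18.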

How the results depend on the processing

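Of 552 values of named members with 1 library left out, 523 kept direction and call, 27 lost the call and 2 gained it, and no named change turned its direction under any setting run. Under the correction for GC content and length, 26 of 28 named values with Pb kept direction and call and 2 lost the call. Rescaling took the call from 1 of 56 named values. A pseudocount of 0.25, edgeR and the replicate block moved no count of members by over 1.5 times. Here and above, some counts under an alternative setting have no share of all genes beside them. Those counts show how calls held, not how members compare with other genes. Without the 2 libraries low in long transcripts the count was 18 at 10 µM over days, 4 at 10 µM at day 15, 1 at 1.26 µM at day 15 and 2 at 0.16 µM at day 18. With no filter it was 1 at 1.26 µM over days, 1 at 1.26 µM at day 12 and 5 at 0.16 µM at day 18. With only the groups compared in the fit (fewer samples) it was 1 at 10 µM at day 9, 0 at day 15, 10 at day 18 and 9 by day, and 0 at 1.26 µM at days 9 and 18 and at 0.16 µM at day 18. At 10 µM at day 15 it was 2 with rescaling and 2 with correction for GC content and length, which was chosen after seeing the data, as was leaving out replicate 1 of day 18 alone. Without day 18 the test by day gave 7. Otherwise the cause was not tested. Rescaling changed the split of higher and lower members to 8 and 11 for day 18 against day 15 (10 and 9 before), to 16 and 4 at 10 µM at day 18 and to 1 and 1 at day 9.

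Leaving out each library gave 1 to 5 members at day 9 against day 6, 9 to 18 at 10 µM and 1 to 9 at 1.26 µM over days, 0 to 5, 1 to 3, 1 to 2 and 13 to 20 at 10 µM at days 6, 9, 15 and 18, 1 to 14 at 1.26 µM at day 18 and 0 to 13 at 0.16 µM at day 18. Day 9 against day 6 gave 1 on leaving out replicate 1 of day 6 and 2 on leaving out its replicate 2. Leaving out 10 µM replicate 3 of day 6 gave the 18, leaving out 0 µM replicate 3 of day 18 gave the 9 and the 13, and the lowest values of day 18 came on leaving out its 0 µM replicate 1 or, in the 0.16 µM comparison, also 0.16 µM replicate 2. At 10 µM at day 6, 5 members were lower with replicate 1 left out and 2 with replicate 2 left out at that dose. At day 9 it was 1 with 10 µM replicate 1 or 0 µM replicate 2 left out, and at day 15 it was 2 with 10 µM replicate 3 or 0 µM replicate 1 left out. Replicates shared only a number (correlations of deviations between -0.356 and 0.532, with 21 of 60 libraries closest to their own number), and a block for it gave 20 members at 10 µM at day 18 and 12 over days, with no count moved by over 1.5 times. With 3 dishes per group of 1 passage, 3 reads limit low members to 0.0594 to 0.181 CPM.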
